A study of Mus musculus with 6 samples.

Results

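The immediate early AP-1 and EGR genes were described here as a set of 10 genes: Fos, Fosb, Fosl2, Jun, Junb, Egr1, Egr2, Atf3, Nr4a1 and Ier3. They were found by gene name in a deposited table of 57010 genes, each name matched 1 row, and all 10 were among the 14799 genes that were abundant enough to be tested. The libraries were bulk RNA-seq of primary neonatal mouse cardiomyocytes (NMCMs) from C57BL/6 pups, prepared as the non-adherent fraction of digested hearts. All 6 libraries came from cells under hypoxia (HO), 3 with vehicle (HO + Vehicle, V1 to V3) and 3 with β-sitosterol, a plant sterol (HO + β-SITO, T4 to T6), so hypoxia is shared by both groups and normoxic cells were not analysed here. The β-SITO dose, the hours of exposure and the number of separate cultures behind these libraries are not given in the sources used here, so the p-values measure the spread between these libraries, which may be technical.

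Immediate early genes are transcribed within minutes of a stimulus from factors that are already present in the cell, without new protein synthesis. Growth factors, serum, stretch, calcium and stress reach their promoters through MAP kinases, serum response factor (SRF) with its partners, and CREB, while cytokine signals also act through NF-κB. Many of the products are themselves transcription factors: FOS and JUN proteins pair through leucine zippers to form AP-1, and EGR and NR4A proteins are zinc finger and orphan nuclear receptor factors. In the heart these genes are known as early markers of pressure overload, ischemia and hypertrophic stimuli. Their transcripts are short-lived, so a level in a library reflects both synthesis and decay at the time of lysis.

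The 10 genes split into equal groups by direction. Relative to HO + Vehicle, Nr4a1, Fosb and Fos rose by more than 2-fold in HO + β-SITO and Ier3 and Junb fell by more than 2-fold. Egr1 and Jun were higher, and Fosl2, Atf3 and Egr2 lower, by less than 2-fold. The log2 fold changes ran from -2.06 for Ier3 to 2.79 for Nr4a1, with a median of -0.22, against a median of -0.01 over all genes tested. Here rose and fell are used only of genes that passed the study's threshold, an adjusted p under 0.05 and a change of more than 2-fold, in a quasi-likelihood (QL) test with edgeR across all genes tested.

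By that threshold 5 of the 10 genes were called, 3 higher and 2 lower, where 22.8% of all genes tested were called (12.7% higher and 10.1% lower). At an adjusted p under 0.05 with no minimum fold, all 10 passed, 5 in each direction, but so did 66.9% of all genes tested (33.0% higher and 33.9% lower). For each of the 10 genes the values of the groups were fully separate, 5 in each direction, as they were for 70.5% of all genes tested (34.8% higher and 35.8% lower). Passing without a fold minimum or without overlap was therefore common in these libraries and says little about these genes. The median absolute log2 fold change was 1.24 for the 10 genes and 0.44 for all genes tested. The 10 genes were chosen with earlier results of these data known. Fosb, among the 3 called higher, passed the filter on low counts through HO + β-SITO alone. The counts and medians of the 10 genes are therefore descriptions beside those of all genes, not a test of the set.

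**Figure D1:**
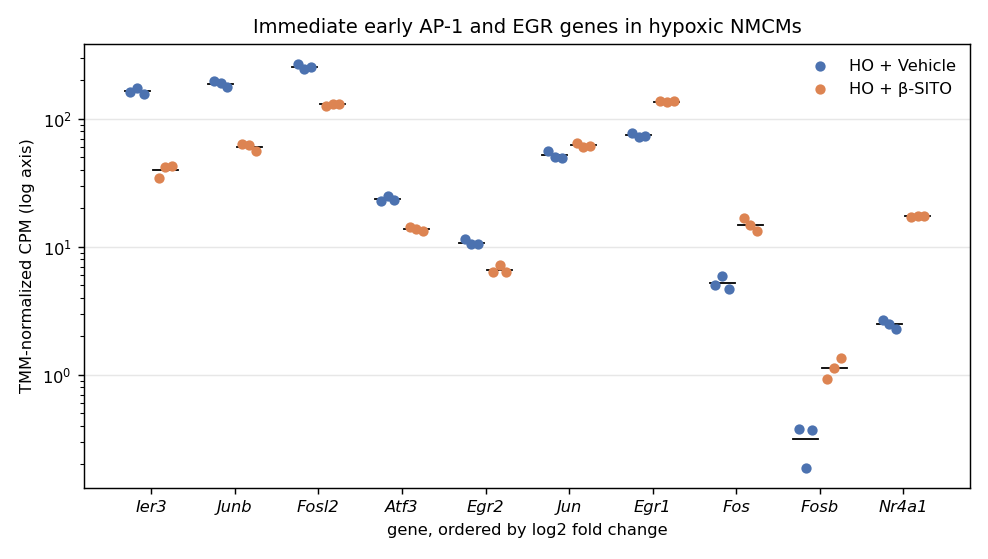
TMM-normalized CPM of the 10 genes on a log axis, with 1 point per library, a bar at the mean of each group, and genes ordered by log2 fold change. The 3 HO + β-SITO points lie below all HO + Vehicle points from Ier3 to Egr2 and above them from Jun to Nr4a1.

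The depth of the libraries was similar, with 16694734 to 17082129 counts in HO + Vehicle and 16962152 to 18460522 in HO + β-SITO. Markers of cardiomyocytes were present (8 of 8 tested, summed level 5154 to 6109 CPM in HO + Vehicle and 4303 to 6964 in HO + β-SITO, 0 of 8 past the threshold). T4 stood apart from T5 and T6: each of the 8 cardiomyocyte markers was lowest in T4 among the HO + β-SITO libraries (Myh6 at 2023, 3268 and 3256 CPM in T4, T5 and T6), and the chi-square per degree of freedom between replicates was 8.70 for T4 and T5 and 9.20 for T4 and T6, but 1.96 for T5 and T6 and 4.72 to 7.54 within HO + Vehicle. Without T4, 3 of the 10 genes were still called higher and 2 lower, with log2 fold changes from -1.97 for Ier3 to 2.80 for Nr4a1. Fibroblast markers were more abundant in sum (29833 to 31113 against 44413 to 45501 CPM, 0 of 8 past the threshold), and most of that sum came from collagen genes. The fibroblast markers were not uniform: at an adjusted p under 0.05 without a fold minimum, 5 of the 8 were higher and 2 lower. Endothelial markers rose in 8 of 8 cases (summed 203.7 to 233.8 against 837 to 867 CPM), macrophage markers in 6 of 8 with 1 lower (1172 to 1293 against 2589 to 3180 CPM), and smooth muscle and pericyte markers in 4 of 8 (1156 to 1256 against 2052 to 2316 CPM). None of 8 neutrophil and lymphocyte markers was abundant enough to be tested, and 4 of them had no count. These shifts move with every result below and their part in it was not tested. In bulk libraries fewer cells of a type and less RNA per cell cannot be told apart. All HO + β-SITO library names carry a suffix that the HO + Vehicle names lack, and any difference in preparation that it may stand for was not tested.

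The sequences just before the start sites of 6 of the genes are shown because they differ in the response elements through which immediate early genes are known to be switched on, while their transcripts moved in both directions. They are the 200 bases before the start in RefSeq's annotation of GRCm38.p6, written 5′ to 3′ on the strand of the gene, and capitals mark matches, on either strand, to a searched motif that lie wholly within these bases. Nr4a1, Fos and Jun were higher in HO + β-SITO, and Egr2, Junb and Ier3 lower.
Nr4a1 (chr15:101266646-101266845, plus strand): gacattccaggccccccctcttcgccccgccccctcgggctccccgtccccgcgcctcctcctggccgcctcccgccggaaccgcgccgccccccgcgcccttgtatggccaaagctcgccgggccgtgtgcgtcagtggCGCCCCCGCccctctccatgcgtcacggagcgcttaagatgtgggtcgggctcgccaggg
Fos (chr12:85473690-85473889, plus strand): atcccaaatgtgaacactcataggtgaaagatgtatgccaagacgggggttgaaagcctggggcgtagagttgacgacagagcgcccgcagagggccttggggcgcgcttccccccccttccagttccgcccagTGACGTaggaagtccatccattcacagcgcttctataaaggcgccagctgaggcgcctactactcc
Jun (chr4:95052223-95052422, minus strand): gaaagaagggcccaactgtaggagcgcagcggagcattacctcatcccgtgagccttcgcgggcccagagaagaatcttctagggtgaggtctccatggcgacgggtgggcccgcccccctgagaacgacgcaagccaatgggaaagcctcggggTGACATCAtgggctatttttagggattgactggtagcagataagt
Egr2 (chr10:67537669-67537868, plus strand): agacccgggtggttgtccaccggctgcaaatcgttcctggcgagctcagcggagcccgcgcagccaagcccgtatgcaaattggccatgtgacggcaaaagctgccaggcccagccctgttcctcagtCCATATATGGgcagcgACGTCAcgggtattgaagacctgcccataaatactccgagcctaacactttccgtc
Junb (chr8:84978749-84978948, minus strand): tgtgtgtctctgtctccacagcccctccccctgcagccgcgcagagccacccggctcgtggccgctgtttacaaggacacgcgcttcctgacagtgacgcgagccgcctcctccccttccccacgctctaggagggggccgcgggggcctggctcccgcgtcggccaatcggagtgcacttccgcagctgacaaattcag
Ier3 (chr17:35821513-35821712, plus strand): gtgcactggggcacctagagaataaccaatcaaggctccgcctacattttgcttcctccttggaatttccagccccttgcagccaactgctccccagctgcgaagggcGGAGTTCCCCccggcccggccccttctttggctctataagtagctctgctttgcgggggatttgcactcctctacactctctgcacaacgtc

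The search used windows from 250 bases before to 50 bases after each start, on both strands, for the AP-1 element TGANTCA, the CRE-like element TGACNTCA, the CRE core TGACGT (which can lie inside a CRE-like element), the EGR element GCGNGGGCG, the CArG box bound by SRF, and the NF-κB element. Windows were found for 9 of the 10 genes, all but Egr1. Jun carried the only CRE-like match, 45 bases before its start (8.83% of all 32851 windows hold one). Egr2, which has 5 annotated windows, was alone among the 9 genes in carrying a CArG box, 72 bases before the start shown (1.63% of all windows), with a CRE core 56 bases before it. The CRE core was also found 66 bases before the start of Fos and 8 bases before that of Atf3 (7.51% of all windows). The EGR element was found in Nr4a1, Fosb and Fosl2, 60, 50 and 79 bases before their starts (5.55% of all windows).

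The NF-κB element was found in 5 of the 9 genes, against 4.51% of all windows. The 6 motifs were chosen with the sequences in view, and a gene can have several windows. The shares of all windows are therefore given as descriptions, and an excess of matches was not tested. The 5 were Ier3 (92 bases before the start) and Fosl2, which were lower, and Fos, Fosb and Nr4a1, which were higher. The match in Fos begins 214 bases before the start, outside the bases shown. The match in Nr4a1 begins 3 bases before the start and runs into the transcript. Neither is therefore in capitals above. Genes with a match to the NF-κB element were thus found in both directions. This also holds without Fosb, which passed the filter on low counts through HO + β-SITO alone. The AP-1 element in the spelling searched, TGANTCA, was in 0 of the 9 genes (7.81% of all windows). Other spellings were not searched as AP-1 elements. Junb had no match to any of the 6 motifs. A match says only that the letters are in the window, and the known upstream enhancers of these genes lie partly outside it.

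The FOS family supplies the partner of JUN in AP-1 and cannot form AP-1 without it. Fos, the founding member and a standard readout of acute stimulation (chromosome 12, 85520664 to 85524047, build GRCm39 as for all gene positions here), had 5.05, 5.96 and 4.65 CPM in V1 to V3 and 16.6, 14.7 and 13.3 CPM in T4 to T6. Every HO + β-SITO library lay above every HO + Vehicle library. The means were 5.22 ± 0.669 and 14.9 ± 1.69 CPM (SD, n = 3), a 2.85-fold rise with a log2 fold change of 1.51 ± 0.13 (SE; edgeR QL, adjusted p = 2.20e-09).

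Fosb, whose splice form ΔFosB is known for persisting after repeated stimulation, was the least abundant of the 10 genes (chromosome 7, 19036621 to 19043976). V1 to V3 held 6, 3 and 6 counts and T4 to T6 held 18, 20 and 26. Its log2 fold change was 1.83 (95% interval 1.01 to 2.66, edgeR QL, adjusted p = 3.79e-04), the widest interval of the set. Only the HO + β-SITO libraries carried Fosb past the filter on low counts, so a gene kept in this way had to be higher in that group. Counts per gene do not separate Fosb from its splice form.

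Fosl2, which encodes FRA-2, a slower and steadier FOS protein, was the most abundant of the 10 genes in HO + Vehicle by CPM (chromosome 5, 32293145 to 32315186). It had 266.6, 243.3 and 254.9 CPM in V1 to V3 and 126.5, 131.1 and 130.9 CPM in T4 to T6, without overlap. The log2 fold change of -0.98 ± 0.06 (SE, edgeR QL, adjusted p = 6.69e-12) is 1.97-fold lower, just short of the 2-fold threshold. Without V2 it passed, at -1.01. Among the 10 genes it was the closest to the threshold from outside, and Fos (log2 fold change 1.51) was the closest from inside.

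Because Fos and Fosl2 moved in opposite directions, the makeup of the FOS family differed between the groups. Per kilobase of exon, which makes genes of different length comparable, Fosl2 made up 90.8%, 87.8% and 89.8% of the family (Fos, Fosb, Fosl1 and Fosl2) in V1 to V3. In T4 to T6 its share was 63.995%, 66.9% and 69.5%. The share of Fos was 7.56% ± 1.13 in HO + Vehicle and 31.5% ± 2.87 in HO + β-SITO (SD, n = 3), a difference of 24.0 percentage points. Each of these shares was without overlap between the groups (p = 0.1 in a two-sided exact permutation test, and 3 libraries against 3 cannot give a smaller one). Shares are ratios within a library, so the scaling between libraries does not enter them, but they depend on the annotated exon lengths. These lengths come from GENCODE vM21 and may differ from those of the annotation used in counting. On counts without division by length the difference was 8.21 points for Fos and -8.44 points for Fosl2.

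Fosl1, which encodes FRA-1 and is itself a known AP-1 target, is the FOS gene outside the set of 10 and fell. It had 19, 30 and 31 counts in V1 to V3 and 5, 9 and 3 in T4 to T6, a log2 fold change of -2.44 (edgeR QL, adjusted p = 1.54e-05). Its share of the FOS family was 2.80% ± 0.740 in HO + Vehicle and 0.748% ± 0.432 in HO + β-SITO (SD, n = 3).

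**Figure D2:**
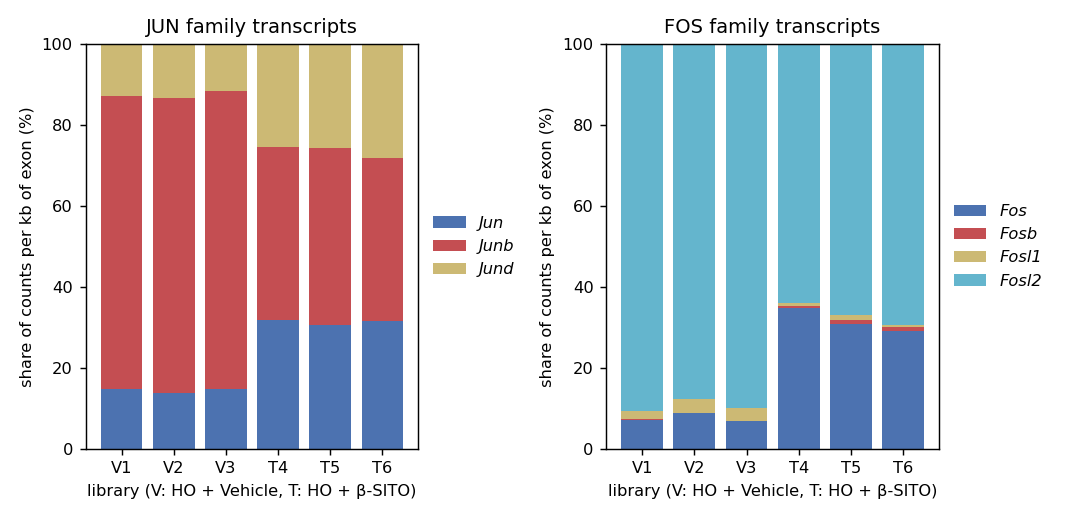
Share of each gene in the counts per kilobase of exon of the JUN family (left) and the FOS family (right), in percent, with 1 stacked bar per library. Junb takes 72.2% to 73.6% of the JUN family in V1 to V3 and 40.3% to 43.9% in T4 to T6, and in the FOS family the share of Fos is larger and that of Fosl2 smaller in T4 to T6.

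JUN proteins can pair with FOS or with each other. Junb, which encodes a JUN protein known to be the weaker activator and a brake on JUN at some promoters, fell (chromosome 8, 85701113 to 85705347). Its libraries held 196.5, 189.1 and 178.1 CPM in V1 to V3 and 63.2, 62.4 and 56.2 CPM in T4 to T6. The highest HO + β-SITO library was thus far below the lowest HO + Vehicle library. Its log2 fold change was -1.63 ± 0.06 (SE, 3.10-fold lower, edgeR QL, adjusted p = 7.29e-15). Junb shares 351 bases with Prdx2 on the other strand, and whether counting used strand is not given in the sources used here. Prdx2 had a log2 fold change of -0.19 and held 3684 to 4169 counts in every library. The part of this overlap in the counts of Junb was not tested.

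Jun, which encodes c-Jun, the JUN protein activated by JNK, went the other way by a small amount (chromosome 4, 94937271 to 94940459). It had 55.8, 50.025 and 49.7 CPM in V1 to V3 and 65.0, 60.1 and 61.0 CPM in T4 to T6. The groups did not overlap, but the gap between V1 and T5 was small. The log2 fold change of 0.26 ± 0.07 (SE, 1.197-fold, edgeR QL, adjusted p = 0.00229) was the smallest in size of the 10. The antisense gene Junos shares 689 bases with Jun and held 12 to 27 counts in every library, and the part of this overlap in the counts of Jun was not tested. Jund, the JUN gene that most cells express at a steady level, had 23.8 against 27.3 CPM and did not pass (log2 fold change 0.20, adjusted p = 0.0518).

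Within the JUN family and per kilobase of exon, Junb kept the largest share in every library, but its lead was smaller in HO + β-SITO. This lead depends on the division by length. In raw counts Jun (1265, 1070 and 1171 in T4 to T6) was above Junb (1229, 1111 and 1079) in T4 and T6 but not in T5. Per kilobase of exon the ratio of Junb to Jun was 4.88, 5.24 and 4.96 in V1 to V3 and 1.35, 1.44 and 1.28 in T4 to T6. The share of Junb was 72.8% ± 0.679 in HO + Vehicle and 42.3% ± 1.82 in HO + β-SITO, while Jun went from 14.5% ± 0.542 to 31.3% ± 0.686 and Jund from 12.7% ± 0.940 to 26.4% ± 1.48 (SD, n = 3, each with exact permutation p = 0.1, the smallest possible). The shares of Jun and Jund can grow when Junb alone falls, so they are not separate evidence of a rise.

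EGR proteins bind GC-rich promoter elements. Egr1, an early sensor of hypoxia, shear and growth factors, lies on chromosome 18 from 34992876 to 34998037. It had 77.6, 72.4 and 73.8 CPM in V1 to V3 and 137.2, 134.0 and 137.3 CPM in T4 to T6, a wide gap with little spread on either side. The log2 fold change of 0.87 ± 0.06 (SE, 1.83-fold, edgeR QL, adjusted p = 4.50e-11) was under the 2-fold threshold, which it passed with library size only (1.02) or upper quartile scaling (1.01). Both of these scalings raise the fold change of every gene, by moving the median over all genes from -0.01 to 0.14.

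Egr2, known from myelination, lymphocyte tolerance and macrophages, was lower instead (chromosome 10, 67371305 to 67378018). V1 to V3 had 11.4, 10.5 and 10.4 CPM and T4 to T6 had 6.37, 7.19 and 6.30 CPM, a log2 fold change of -0.70 ± 0.12 (SE, 1.63-fold lower, edgeR QL, adjusted p = 3.13e-05). The paralogs of the family therefore did not move together. Egr3, which is induced by EGR1 in other cells, rose from 9, 5 and 4 counts in V1 to V3 to 89, 98 and 81 in T4 to T6 (log2 fold change 3.64, adjusted p = 6.40e-10), and like Fosb it passed the filter on low counts through HO + β-SITO alone. Egr4 had no count in any library. Of the NAB proteins, which hold EGR factors in check, Nab1 (log2 fold change -0.91) and Nab2 (-0.42) were lower without reaching 2-fold.

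Nr4a1 encodes NUR77, an orphan nuclear receptor induced by the same signals as Fos, and rose the most of the 10 genes (chromosome 15, 101152150 to 101172676). It had 2.65, 2.51 and 2.29 CPM in V1 to V3 and 17.2, 17.3 and 17.3 CPM in T4 to T6. The means were 2.48 ± 0.181 CPM in HO + Vehicle and 17.3 ± 0.0850 CPM in HO + β-SITO (SD, n = 3). This was a log2 fold change of 2.79 ± 0.13 (SE, 6.93-fold, edgeR QL, adjusted p = 7.61e-14). With 334, 307 and 333 counts in T4 to T6, the spread in HO + β-SITO was smaller than sampling noise alone would give. It is therefore no measure of precision. A long noncoding gene on the same strand lies over 2740 bases of Nr4a1 and had at most 4 counts in a library. How shared reads were counted is not given in the sources used here. The part of this overlap in the counts of Nr4a1 was not tested. Of its paralogs, Nr4a3 rose (1.27 to 3.79 CPM on average, log2 fold change 1.57, adjusted p = 2.99e-06), and Nr4a2 did not pass (log2 fold change -0.21, adjusted p = 0.319), with overlapping libraries.

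Atf3 encodes a stress-induced factor that can pair with JUN proteins and often represses its targets (chromosome 1, 190902493 to 190950236). It had 22.9, 25.013 and 23.0 CPM in V1 to V3 and 14.2, 13.8 and 13.3 CPM in T4 to T6. The log2 fold change of -0.78 ± 0.09 (SE, 1.72-fold lower, edgeR QL, adjusted p = 1.13e-07) did not reach 2-fold. Atf4, which drives Atf3 in the integrated stress response, was lower by nearly the same amount (log2 fold change -0.76, adjusted p = 1.02e-09).

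Ier3 encodes IEX-1, a short-lived survival protein that is a known NF-κB target, and is the only one of the 10 genes that does not encode a transcription factor (chromosome 17, 36132576 to 36133815). It had 161.7, 174.2 and 156.4 CPM in V1 to V3 and 34.3, 41.6 and 42.4 CPM in T4 to T6, so that its lowest HO + Vehicle library was far above its highest HO + β-SITO library. The log2 fold change of -2.06 ± 0.08 (SE, 4.16-fold lower, edgeR QL, adjusted p = 1.06e-14) was the largest decrease of the set.

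The levels per kilobase of exon (CPM per kb) also changed order. In HO + Vehicle, Ier3 (145.1 CPM per kb), Junb (81.7) and Fosl2 (26.3) led, followed by Egr1 (16.6), Jun (16.3), Atf3 (10.977), Egr2 (3.17), Fos (2.22), Nr4a1 (0.708) and Fosb (0.0501). Only Egr1 and Jun overlapped as neighbours in that order. In HO + β-SITO the order was Ier3 (34.9), Egr1 (30.4), Junb (26.3), Jun (19.5), Fosl2 (13.4), Atf3 (6.40), Fos (6.33), Nr4a1 (4.92), Egr2 (1.95) and Fosb (0.182), where Ier3 overlapped with Egr1 and Atf3 with Fos. The span between the leaders and the middle of the set was thus narrower in HO + β-SITO. By CPM the 5 lower genes summed to 622.9 to 659.2 in HO + Vehicle and 244.6 to 256.1 in HO + β-SITO, and the 5 higher genes to 130.8 to 141.5 and 227.3 to 236.9. All 10 together took 0.0712% to 0.0758% of the counts in HO + Vehicle and 0.0504% to 0.0508% in HO + β-SITO.

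Further AP-1 and ATF relatives outside the set went both ways. Of 16 tested, 5 fell and 1 rose (37.5% called), with a median log2 fold change of -0.33. The decreases included all 3 BATF genes, whose products pair with JUN proteins in immune cells: Batf2 had 627, 738 and 665 counts in V1 to V3 and 11, 7 and 6 in T4 to T6 (log2 fold change -6.62), and Batf (-2.28) and Batf3 (-2.45) fell as well. Maff, a small MAF without an activation domain, fell by 1.15 on the log2 scale, while the small MAF genes Mafg (log2 fold change -0.45) and Mafk (-0.33) were lower by less than 2-fold. Maf, which encodes a large MAF protein known from macrophages and lymphocytes, rose by a log2 fold change of 1.59. Of the 8 macrophage markers 6 rose and 1 fell, and the part of macrophages in the rise of Maf was not tested. Atf5 (0.42), Atf7 (0.21), Atf1 (-0.33) and Atf6 (-0.18) passed without reaching 2-fold, and Atf2 (0.02) and Jdp2 (-0.06) did not pass. Fosl1, Batf2 and Batf3 passed the filter on low counts through HO + Vehicle alone, so they had to be lower.

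**Figure D3:**
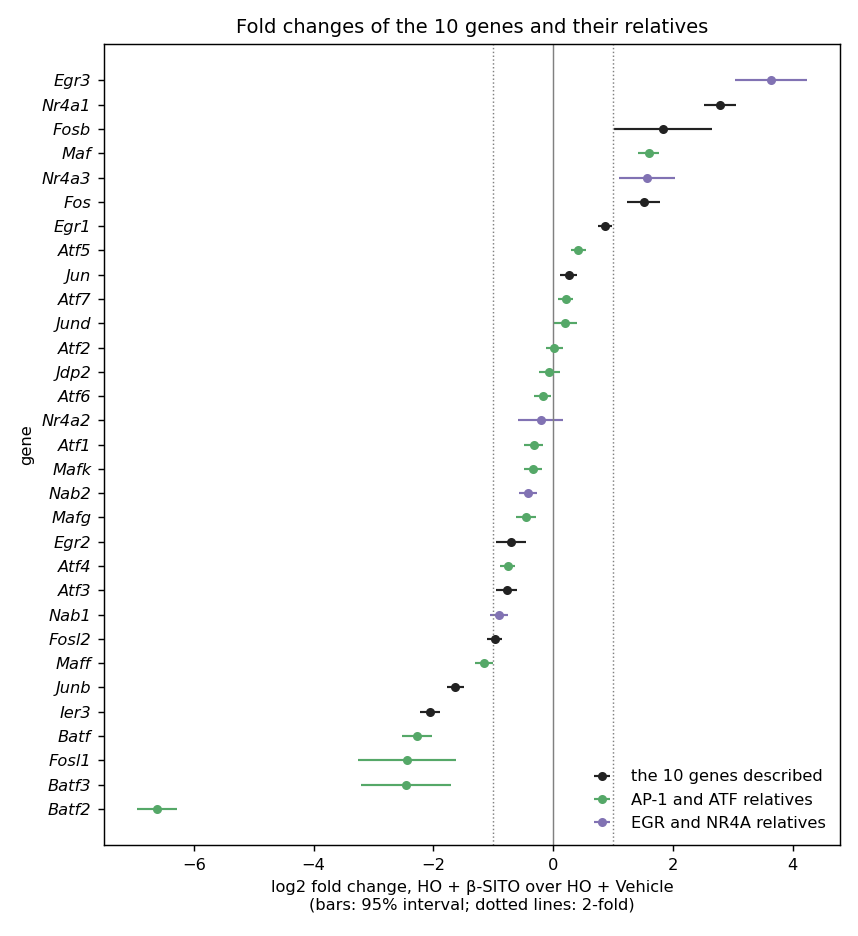
Log2 fold change (HO + β-SITO over HO + Vehicle) of the 10 genes and of their tested AP-1, ATF, EGR and NR4A relatives, with 95% intervals and dotted lines at 2-fold. The 10 genes are spread from -2.06 to 2.79, and relatives range from Batf2 at -6.62 to Egr3 at 3.64.

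Of 40 other immediate early genes, 8 fell and 5 rose (32.5% called, median log2 fold change -0.19). The 6 largest decreases were those of Ptgs2, a prostaglandin synthase (log2 fold change -5.82), Lif, a cytokine of the interleukin-6 family (-3.72), Pim1, a kinase induced by STAT factors (-2.43), Ifrd1 (-1.82), the stress gene Gadd45b (-1.68) and Csrnp1 (-1.58). The 5 that rose were the matricellular genes Ccn2 (2.57) and Ccn1 (1.92), Arc (2.004, with 1 to 8 counts in HO + Vehicle and 15 to 22 in HO + β-SITO), the flow-responsive factor Klf2 (1.68) and the MAP kinase phosphatase Dusp1 (1.09). Ccn2, Ccn1 and Klf2 are also expressed by endothelial or mural cells, whose markers were higher, but the part of these cells in the rises was not tested. Arc passed the filter through HO + β-SITO alone. Btg1 and Nfil3, the other genes of the list that fell, were no longer past 2-fold with library size only or upper quartile scaling. In the same scalings Rhob and Dusp2 passed on the higher side, so that with library size only 6 genes of the list were called lower and 7 higher.

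Most of the kinases and factors upstream of immediate early genes were not called, which was also so for all genes tested (22.8% called). Of 29 genes of the MAP kinase cascades, 2 fell and 2 rose (13.8% called, median log2 fold change -0.17). Without a fold minimum 14 were lower and 9 higher, where 33.9% of all genes tested were lower and 33.0% higher. Map2k1, which encodes the ERK kinase MEK1, fell from 260.4 to 83.1 CPM on average (log2 fold change -1.65, adjusted p = 9.71e-16), and Mapk11, which encodes p38β, fell by 2.09 on the log2 scale. Rps6ka1, an ERK-activated kinase, rose by a log2 fold change of 1.23. Mapk10 (1.0001) lay on the threshold and was not called with limma-voom, without V3 or without T5. Of 16 SRF, TCF, CREB and MEF2 factors, 0 fell and 2 rose in edgeR's test (12.5% called, median log2 fold change 0.14, with 3 lower and 8 higher at an adjusted p under 0.05 without a fold minimum, and also 0 and 2 with DESeq2), namely Mef2c (1.41) and the CREB coactivator Crtc3 (1.13). Srf itself was higher by less than 2-fold (log2 fold change 0.29, adjusted p = 0.00240). RNA levels do not show kinase activity.

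Of 20 textbook target genes of AP-1 and EGR, 10 fell and 4 rose (70.0% called, median log2 fold change -1.01). The 6 largest decreases were those of the chemokine Ccl2 (log2 fold change -7.15), the collagenase Mmp13 (-6.37), Il6 (-4.83), the adhesion molecule Icam1 (-4.74), the protease inhibitor Timp1 (-4.65) and the stromelysin Mmp3 (-4.19), several of which are also known NF-κB targets. The 4 that rose were Plau, which encodes urokinase (2.83), the tissue factor gene F3 (2.43), Pdgfb (2.19) and the cyclin gene Ccnd1 (1.17). Mmp10, another of the genes that fell, passed the filter on low counts through HO + Vehicle alone. All lists were written with results of these libraries known, and their counts are given as descriptions beside the 22.8% called over all genes tested.

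**Figure D4:**
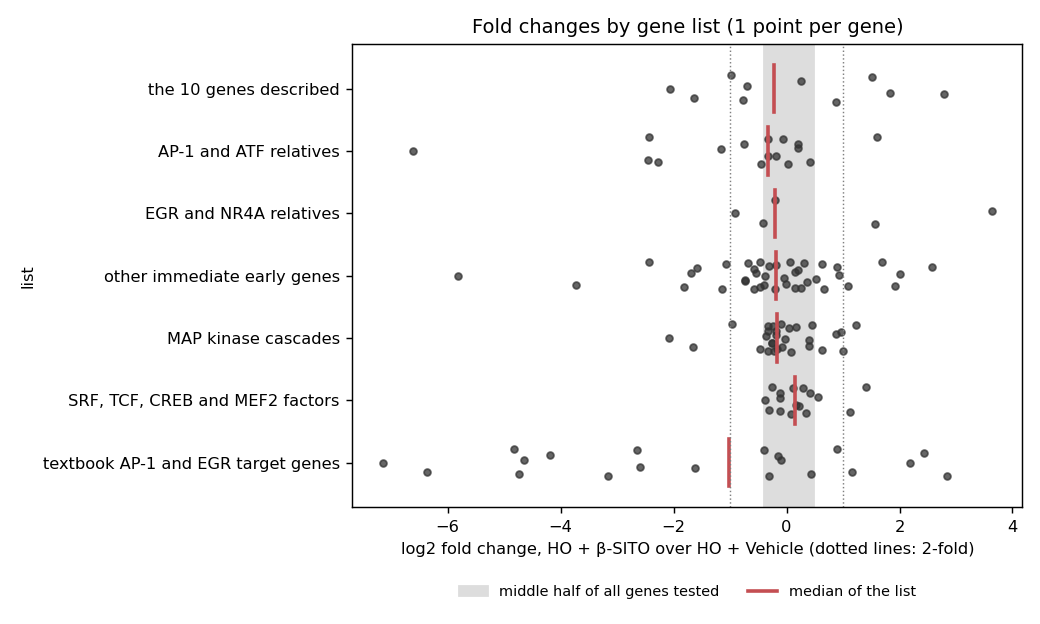
Log2 fold change (HO + β-SITO over HO + Vehicle) of the tested genes of each list, with 1 point per gene, a red bar at the median, dotted lines at 2-fold, and a grey band from -0.401 to 0.48 that holds the middle of all genes tested from their 25th to 75th percentile. The 10 genes and the target genes spread to both sides of the band, and the factors of the SRF, TCF, CREB and MEF2 list stay closest to it.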

How the data were processed

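RNA-seq was available for 6 libraries of hypoxic NMCMs in 2 groups of 3, assigned by the sample titles. The authors deposited raw counts per gene from featureCounts for all libraries, without normalization, and the submitters' processing notes also name FastQC, HISAT2 and GRCm39. Versions, annotation release, strand setting and treatment of overlapping genes are not given in the sources used here. The study names DESeq2 for its own comparison.

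From the deposited counts, genes were filtered with filterByExpr (minimum count 10), scaled by TMM (factors 0.9455 to 1.055) and fitted with edgeR 4.0.16 (quasi-likelihood test, QL, robust, group as the only term) in R 4.3.3, with Benjamini-Hochberg adjustment over 14799 genes. The SE is the log2 fold change divided by the square root of F. The script was tested on simulated data. limma 3.58.1 and DESeq2 1.42.0 served as alternatives, and pools used SciPy 1.17.1. Exon lengths are unions of GENCODE vM21 exons matched by gene ID (185 of 185 list genes). They may differ from those of the annotation used in counting, which limits every level, ratio and share per kilobase. Promoter windows are RefSeq's, of GRCm38.p6, and motifs were chosen with the sequences in view. The members and lists were chosen with earlier results of these data known, and 1 gene of the relatives list is not reported here. Named genes are the 10 members, all tested relatives and, of each other list, up to 6 called genes in each direction with the largest change. Prdx2, Junos, Btg1, Nfil3, Rhob, Dusp2, Mmp10, Myh6 and Srf were named after their values were seen. Replicates differed by more than sampling noise (chi-square per degree of freedom 1.96 to 9.20).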

Additional observations from a re-analysis of the deposited data

How the results depend on the processing

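Of the recomputed fold changes of the 10 genes, 146 kept their direction and their side of the threshold and 3 kept their direction but passed 2-fold: Egr1 with library size only (1.02) and upper quartile scaling (1.01), and Fosl2 without vehicle replicate 2 (-1.01). Fosb could not be computed with a CPM of at least 1 in 3 libraries, which removed it. Without a fold minimum, 5 of the 10 genes were called lower and 5 higher, and over all genes 5014 lower and 4881 higher. Against a 2-fold change with glmTreat, 1255 genes were called higher. Without division by length, the differences in share were 21.7 points for Jun, 9.25 for Jund, 8.21 for Fos, -0.43 for Fosl1 and -8.44 for Fosl2, and 0 neighbours overlapped in the HO + Vehicle order. With library size only, which moves the median of all genes from -0.01 to 0.14, the list medians were -0.18 for AP-1 and ATF relatives, -0.0453 for other immediate early genes, -0.0195 for MAP kinase cascades, 0.29 for SRF, TCF, CREB and MEF2 factors and -0.86 for the target genes, and 4 MAP kinase genes were called higher. No paired analysis was possible because the replicate numbers of the groups (1 to 3 and 4 to 6) share no number. Fosb, Fosl1, Batf3, Egr3, Arc and Mmp10 rest on few counts, and the sizes of their changes are imprecise.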
